A study of Mus musculus with 76 samples.

Results

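The 39 protein-coding genes of the 4 mouse Hox clusters, taken from 21738 protein-coding genes of the GENCODE annotation on mm39 by symbol (Hox, a cluster letter from a to d and a number), were followed in the embryonic diencephalon. HoxA held 11 genes on the minus strand of chr6:52132570-52237822, HoxB held 10 on the plus strand of chr11:96085106-96259082, HoxC held 9 on the plus strand of chr15:102829538-102945278 and HoxD held 9 on the plus strand of chr2:74498654-74595486. The diencephalon came from wild type C57BL/6J embryos and from embryos homozygous for a humanized hs754 allele, in which the human sequence replaced its mouse counterpart on chromosome 13, away from all 4 clusters. Embryos were taken at E11.5, 6 pooled for a replicate, or at E17.5, 3 pooled, so a replicate is a pool and carries no information on single embryos. RNA was measured in 4 replicates of each genotype and stage. Peak lists for H3K27me3, H3K4me3 and H3K27ac covered 2 replicates per genotype for E11.5 and 3 for E17.5. CTCF lists, from E17.5 alone, covered 3 per genotype.

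Hox genes encode homeodomain transcription factors that give cells of the trunk, limbs and hindbrain their position along the body axis. Genes at the 3′ end of a cluster (low paralogue groups) are switched on earlier and closer to the head than genes at the 5′ end (high groups), and the forebrain, which includes the diencephalon, lies in front of the domain where Hox genes are normally active. Where Hox genes are silent, Polycomb repressive complex 2 places H3K27me3 across the clusters. H3K4me3 marks gene starts, H3K27ac marks active starts and enhancers, starts that carry H3K4me3 together with H3K27me3 are called bivalent, and CTCF is a zinc finger protein that binds DNA in one orientation and holds chromatin loops.

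One CTCF site of each cluster was read from mm39 to show sequence at CTCF peaks within the Hox clusters. It was the site, among those with a match to the CTCF core motif, whose lowest fold enrichment over the 3 wild type lists was highest. Each line gives 60 bases 5′ to 3′ around the best match, on the strand of that match, with the match in capitals. The HoxA match had 1 mismatch to the motif, and those of HoxB, HoxC and HoxD had 2, so their strand is uncertain. The HoxC match, at 102895979 to 102895990, lay to one side of the peak summit at 102896023. The capitals are therefore not a mapped binding site. The HoxA site lay at chr6:52198765-52198824 on the minus strand, 0.01 kb from the Hoxa7 start. The HoxB site lay at chr11:96131224-96131283 on the minus strand and at -30.89 kb from the Hoxb9 start, where a negative distance is upstream. The HoxC site lay at chr15:102895955-102896014 on the minus strand and at -2.81 kb from the Hoxc8 start. The HoxD site lay at chr2:74546241-74546300 on the plus strand, 4.0 kb downstream of the start that Hoxd3 and Hoxd4 share. It is past that start only, and lies within the annotated spans of both genes. At 47.62 kb from the 5′ end of HoxD, it is upstream of the canonical Hoxd4 start at 58.76 kb.
HoxA, Hoxa7: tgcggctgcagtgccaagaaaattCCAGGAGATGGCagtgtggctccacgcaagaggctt
HoxB, before Hoxb9: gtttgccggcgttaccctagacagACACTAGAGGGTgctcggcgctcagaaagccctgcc
HoxC, before Hoxc8: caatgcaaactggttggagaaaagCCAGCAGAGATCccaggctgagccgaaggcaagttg
HoxD, past Hoxd4: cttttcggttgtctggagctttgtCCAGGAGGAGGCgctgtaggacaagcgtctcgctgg

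For the starts, the 200 bases before 2 HoxA genes are shown with CG pairs in capitals, because a high density of CG pairs is the sequence feature most often found at starts with H3K4me3. Hoxa7 (chr6:52198835-52199034, before its outermost start) had an H3K4me3 peak in all 10 lists, and Hoxa2 (chr6:52141812-52142011) had one in no list. Both are written on the minus strand of mm39, 5′ to 3′ towards the start. They held 11 and 3 CG pairs.
Hoxa7: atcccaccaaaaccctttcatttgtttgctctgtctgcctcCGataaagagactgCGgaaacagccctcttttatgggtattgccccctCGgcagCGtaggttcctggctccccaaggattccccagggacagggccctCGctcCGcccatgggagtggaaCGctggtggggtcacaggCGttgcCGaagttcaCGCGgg
Hoxa2: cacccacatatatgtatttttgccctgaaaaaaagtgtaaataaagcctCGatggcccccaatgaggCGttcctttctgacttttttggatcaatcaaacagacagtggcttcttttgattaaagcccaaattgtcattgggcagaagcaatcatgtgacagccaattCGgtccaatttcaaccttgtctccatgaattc

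RNA from the 39 Hox genes was close to the limit of detection. The libraries held 16414369 to 24272569 reads counted on genes, and the 39 genes together took 254 reads over all 16 libraries, 221 at E11.5 and 33 at E17.5. No read was counted on 16 of the 39 in any library: Hoxa3, Hoxa4, Hoxa11, Hoxb6, Hoxb7, Hoxb13, Hoxc8, Hoxc9, Hoxc11, Hoxc12, Hoxd3, Hoxd4, Hoxd9, Hoxd10, Hoxd11 and Hoxd12. A count of 0 allows up to 3 reads, which came to 0.124 to 0.183 CPM (counts scaled to the size of the library), and such limits cover counting error only. In bulk tissue, fewer cells that express a gene and less RNA per cell cannot be told apart. The whole family took 19, 21, 26 and 47 reads in the E11.5 wild type libraries and 16, 19, 35 and 38 in the E11.5 humanized libraries. At E17.5 it took 1, 3, 5 and 8 reads in wild type and 1, 2, 4 and 9 in humanized libraries. Every E11.5 library was above every E17.5 library, in both genotypes.

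Hoxc13, the 5′ end gene of HoxC, known for hair and nail, was at 0.0351 CPM per kb of exon over all libraries. It had 3, 2, 5 and 4 reads in the E11.5 wild type libraries, 2, 0, 6 and 6 in the E11.5 humanized libraries, and 0 in all 8 libraries of E17.5. Over the summed libraries and scaled to their size, E11.5 was at 5.02 times a floor of 3 reads for the E17.5 group in wild type. In humanized embryos it was at 3.98 times that floor. These values take the E11.5 reads as counted, without their counting error, so they are not lower limits of the ratio. Hoxd8 followed at 0.0237 CPM per kb, with the other order of the stages. It had 0, 1, 1 and 1 reads in the E11.5 wild type libraries and 3, 5, 2 and 0 at E17.5. In humanized embryos it had 0, 1, 0 and 0 reads, then 0, 2, 0 and 5. The stages of Hoxd8 overlapped in both genotypes. Its ratio of E11.5 to E17.5 was 0.323 in wild type (95% counting interval 0.057 to 1.25) and 0.122 in humanized embryos (0.003 to 0.948).

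Per length, Hoxb4, Hoxb8, Hoxb5, Hoxd13, Hoxa2, Hoxa5 and Hoxa6 came below these, and spanned 0.00608 to 0.0115 CPM per kb, with at most 4 reads in any library, and their order was not tested. Hoxb8 had 0, 0, 1 and 4 reads in the E11.5 wild type libraries and Hoxd13 had 1, 0, 0 and 4. Both were at 0 in every E17.5 library. In the annotation used here, exons of 22 of the 39 genes overlap another gene, 9 of them on the same strand. Reads shared on the same strand cannot be assigned to one of them. The only genes that overlap Hoxa10, Hoxc9 and Hoxc13 were not in the count files, so they took no reads from these 3 in the counting. On the deposited count that uses strand, the total of Hoxb2 over all libraries was 8 reads in place of 1 and that of Hoxb3 was 12 in place of 3. The 16 members with no read stayed at 0 on that count. Of 61 other genes annotated within the clusters, 46 were in the count files and 9 had a read. The highest was Gm11539, a transcribed processed pseudogene in HoxB, with 50 to 82 reads at E11.5 and 11 to 36 at E17.5. Its 732 reads over all libraries were more than those of the 39 Hox genes together. Evx2, the homeobox gene 8.8 kb beyond Hoxd13, had 16 to 148 reads at E11.5 and 0 to 5 at E17.5.

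**Figure D1:**
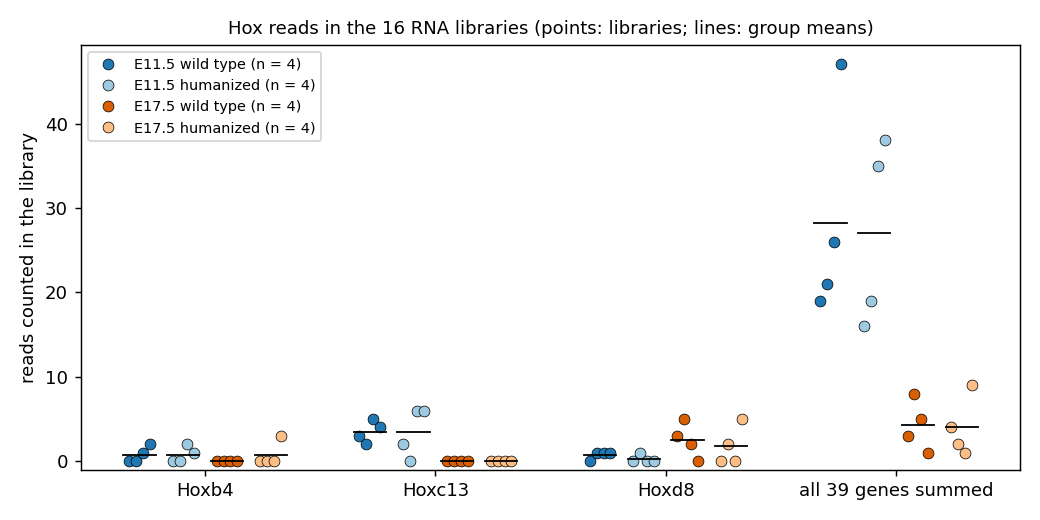
Reads counted on Hoxb4, Hoxc13, Hoxd8 and all 39 Hox genes summed (vertical axis, reads in a library) in the 16 RNA libraries. Points are libraries, lines are group means and colours are stage and genotype. The sum was 16 to 47 reads in every E11.5 library and 1 to 9 at E17.5.

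To ask which members changed between the stages, all genes that passed a filter on low counts were tested with edgeR's quasi-likelihood test. In wild type, 1 of the 39 passed the filter, through its E11.5 libraries, and was called lower at E17.5, beside 26.7% of all 18583 genes tested. No Hox gene passed the filter in the 8 humanized libraries on their own, and in one edgeR fit of all 16 libraries 1 was called lower in humanized embryos, beside 35.1% of 20234 genes. Hoxc13 and Hoxd8 did not pass the filter in either genotype on its own.

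Evx2 was called lower at E17.5 in both genotypes by edgeR, having passed the filter through its E11.5 libraries, and the size of its change is not given, since its E17.5 libraries held 0 to 5 reads. Markers of other tissues moved with the stage as well. A list of 12 hindbrain and spinal cord genes summed to 43.0 to 66.3 CPM at E11.5 and 19.7 to 33.0 at E17.5, with no gene at 0 in all libraries of a stage. Of its 3 genes that passed the filter in wild type, Lmx1b fell by 1.82 and Slc6a4 rose by 2.84 on the log2 scale. A list of 8 mesenchyme and meninges genes summed to 1493 to 2024 CPM at E11.5 and 350 to 648 at E17.5, and 7 of the 8 fell and 1 rose in wild type. The part of these tissues in the fall of Hox reads was not tested. The 10 diencephalon genes (Six3, Lhx2, Tcf7l2 and others) summed to 994 to 1903 CPM at E11.5 and 1430 to 1765 at E17.5. None of them was at 0 in all libraries of a stage, and Rax had 0 to 13 reads at E11.5. Blood genes spanned 110 to 372 and then 236 to 904 CPM, microglia genes 33.0 to 47.0 and then 22.9 to 59.6, and endothelial genes 281 to 346 and then 211 to 362.

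The partners of Hox proteins were abundant in the same libraries. The 9 TALE homeodomain genes, which encode the Pbx, Meis and Pknox proteins that bind DNA together with Hox proteins and with other factors, summed to 1026 to 1158 CPM at E11.5 and 754 to 986 CPM at E17.5. All 9 passed the filter in wild type, where 1 rose, 2 fell and 6 did not pass edgeR's test, while 29.0% of all genes tested rose and 26.7% fell. On the log2 scale, Meis2 rose by 1.30 (SE 0.377, edgeR adjusted p = 0.0133). Meis1 fell by 1.99 (adjusted p = 8.52e-06) and Pbx2 fell by 1.84 (adjusted p = 0.000136) on that scale. In humanized embryos 2 rose and 5 fell, beside 38.2% and 39.5% of all genes tested, and the difference between the genotypes was not called for any of them.

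Of 25 regulators of Hox genes (Polycomb subunits, H3K27 demethylases, trithorax genes, retinoic acid receptors and enzymes, Cdx genes and others), 19 passed the filter in wild type, and 3 rose, 7 fell and 9 did not pass, against the same shares of all genes. On the log2 scale, used for each change here, Ezh2, the H3K27 methyltransferase of dividing cells, fell by 2.33 (edgeR, adjusted p = 1.38e-05). Its paralogue Ezh1 rose by 1.26 (adjusted p = 0.000149). Eed, a shared core subunit, fell by 1.48 (adjusted p = 0.000593). Cbx2, a chromodomain subunit that reads H3K27me3, fell by 3.21 (adjusted p = 4.825e-06). Cyp26b1, which degrades retinoic acid, rose by 2.00 (adjusted p = 0.00182). In humanized embryos 6 rose, 9 fell and 4 did not pass, while 38.2% of all genes tested rose and 39.5% fell.

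H3K27me3 covered every Hox start. A peak lay within 2 kb of 39 of 39 starts in every wild type list, against 20.3% (E11.5) and 21.9% (E17.5) of all protein-coding starts, and the same 39 held in all 10 lists of both genotypes. HoxA, HoxC and HoxD each lay inside a single peak that covered the whole cluster in all 10 lists. Among 13850 to 21295 H3K27me3 peaks in an E11.5 list, the widest was HoxC (172.6 to 194.5 kb), followed by HoxA (137.6 to 186.6 kb), the main HoxB peak (134.0 to 138.7 kb) and HoxD (125.5 to 131.7 kb), in that order in all 4 lists. At E17.5, HoxC (197.9 to 240.2 kb) and HoxA (186.6 to 191.4 kb) ranked first and second in all 6 lists, and the main HoxB peak and HoxD ranked between 3 and 6. The starts used here are the outermost annotated ones, and for 8 genes the start of the canonical transcript lies over 2 kb away, which changes nothing under a single peak.

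The domains ran past the genes. At E11.5 the HoxA peak reached 22.0 and 20.6 kb beyond Hoxa13 in wild type and 37.1 and 69.0 kb in humanized lists, and at E17.5 it reached 68.9 to 69.4 kb in all 6, past Evx1, which lies 52.7 kb out. The HoxD peak reached 26.1 to 27.8 kb beyond Hoxd13 at E11.5 and 27.8 to 29.5 kb at E17.5, past Evx2. At the Hoxc4 end, the HoxC peak ran 36.3 to 55.1 kb beyond the cluster at E11.5 and 55.1 to 97.1 kb at E17.5. Among the 24 protein-coding genes that are the nearest 3 on each side of a cluster, 6 had H3K27me3 within 2 kb in all 10 lists (Skap2, Evx1, Ttll6, Skap1, Smug1 and Evx2) and 14 had none in any list. H3K4me3 was at 21 of the 24 in all 10 lists, the exceptions being Evx1, Evx2 and Calcoco2, and H3K27ac was at 17 in all 10 lists.

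**Figure D2:**
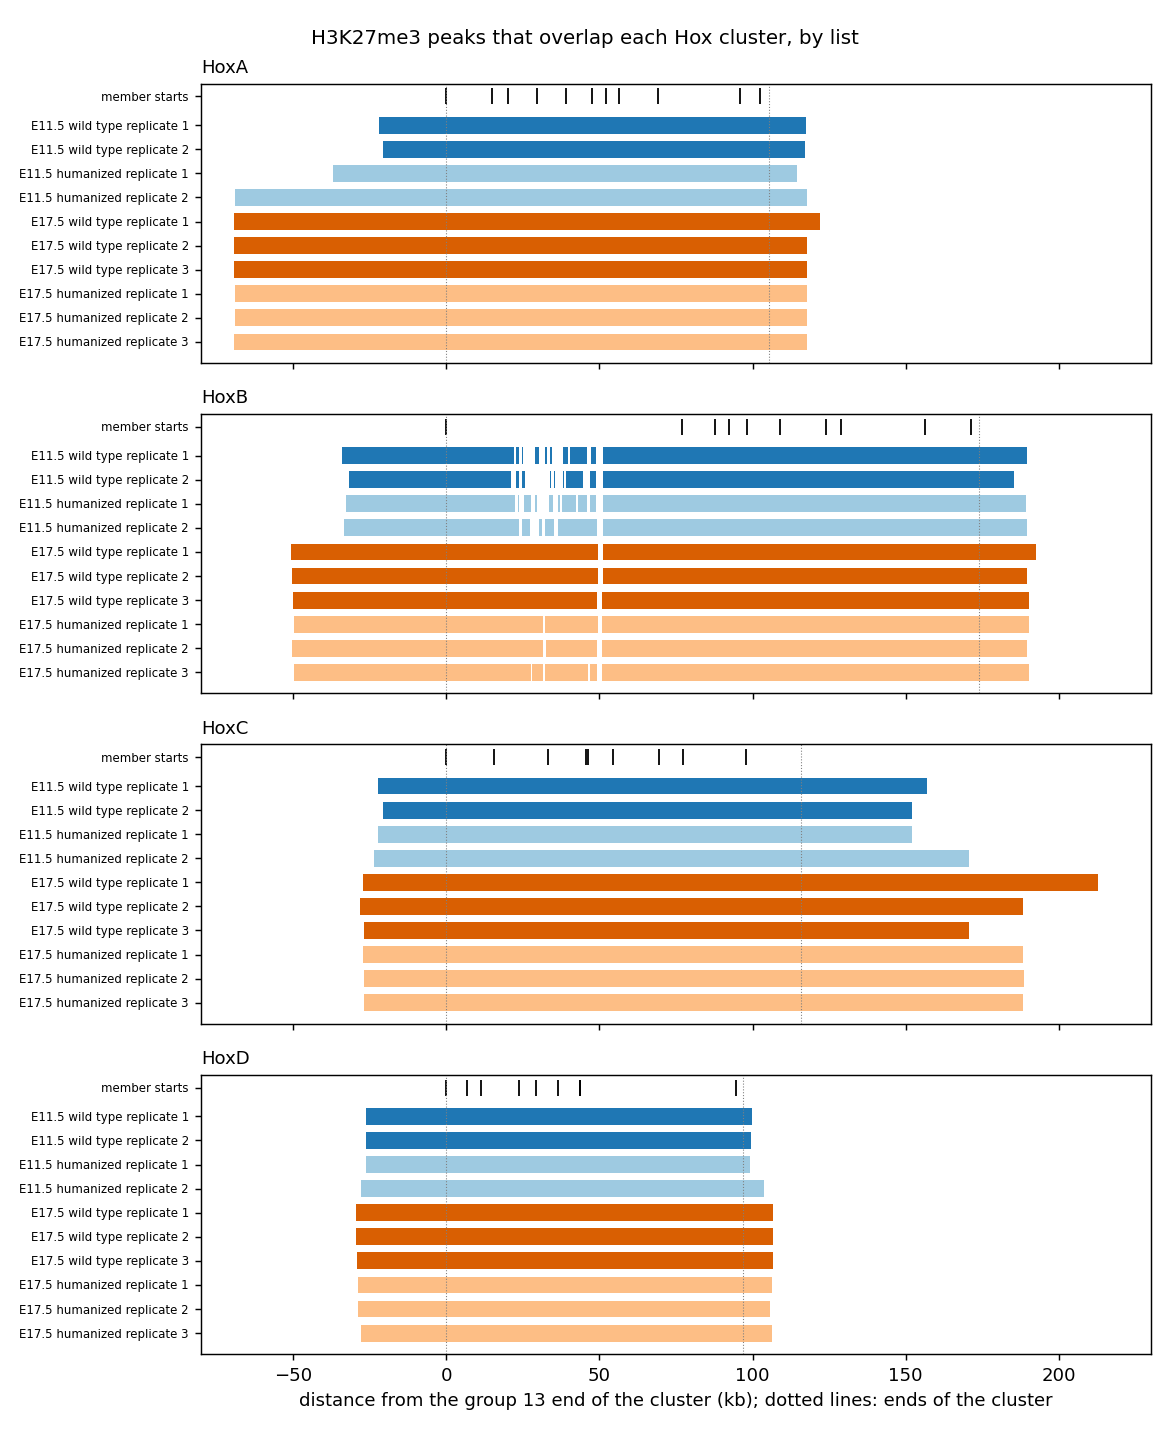
H3K27me3 peaks that overlap each cluster (horizontal axis, kb from the group 13 end, dotted lines at the cluster ends), with 1 bar row for each of the 10 lists, coloured by stage and genotype, and ticks for gene starts. HoxA, HoxC and HoxD were unbroken in every list, and HoxB was broken between Hoxb13 and Hoxb9.

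HoxB alone was broken, in the stretch between Hoxb13 and Hoxb9, which holds no other Hox gene. Peaks covered 90.8% and 88.6% of HoxB in the E11.5 wild type lists and 91.9% and 95.3% in the E11.5 humanized lists. At E17.5 they covered 99.1% in each of the 3 wild type lists and 98.7%, 98.6% and 97.7% in the humanized lists. Every E17.5 list was above every E11.5 list. In wild type the means were 89.7% ± 1.52 (SD, n = 2) and 99.1% ± 0.005 (SD, n = 3), with a two-sided exact permutation p of 0.1, the smallest that 2 lists against 3 allow. With both genotypes, 91.7% ± 2.79 (SD, n = 4) rose to 98.7% ± 0.533 (SD, n = 6), exact permutation p = 0.00476, the smallest possible, and 0.019 after adjustment over the 4 clusters. Lists of E17.5 held 19193 to 43700 H3K27me3 peaks, a range that overlaps that of E11.5, and with every list cut to 13850 peaks the difference was 7.39 percentage points, with the same p. A gap of 1.58 to 2.41 kb nearest Hoxb9 remained in every list.

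Enrichment of the domains was higher at E11.5. The fold enrichment over background was 22.2 to 27.3 at Hoxb13 in the E11.5 wild type lists and 12.4 to 16.2 in the E17.5 wild type lists. At the other 38 starts it was 25.8 to 33.7 and then 17 to 24. The stages did not overlap in either range. In limma's fit on log2 fold over all starts with a peak in all 10 lists, 39 of 39 starts were lower at E17.5, with a log2 difference of -0.72 in HoxD, -0.74 in the main HoxB peak, -0.81 in HoxA, -0.82 in HoxC and -0.94 at Hoxb13 (adjusted p at most 2.26e-07). The 39 starts share 5 peaks, so this is 5 measurements. Over all 3495 starts tested, 56.3% were lower and the median difference was -0.35. With each list's median subtracted, the 39 were still called lower (-0.65 to -0.43), beside 43.2% of all starts. Peak lists hold no read depth, and its part in these values was not tested.

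H3K4me3 was found at few Hox starts and at low enrichment. It lay within 2 kb of 9 of 39 starts in both E11.5 wild type lists (among them Hoxa4, Hoxa7, Hoxb4, Hoxc6, Hoxd1, Hoxd8, Hoxd9 and Hoxd13), against 61.7% of all protein-coding starts. At E17.5 it lay at 8 in all 3 lists (among them Hoxa4, Hoxa7, Hoxc6, Hoxd1, Hoxd9, Hoxd12 and Hoxd13), against 62.0%. Since every Hox start carried H3K27me3, these 9 and 8 were also the starts with both marks, against 18.5% and 18.6% of all starts. In no list was H3K4me3 found at 26 of the 39, and in all 10 lists it was found at 4, among them Hoxa4, Hoxa7 and Hoxd1. Where present in wild type lists, its fold enrichment had a median of 6.6 (E11.5) and 7.3 (E17.5), while the median over all protein-coding starts with the mark was 43.7 to 45.9 in the E11.5 lists and 47.6 to 54.7 in the E17.5 lists. Of the 10 HoxB genes, Hoxb4 alone had the mark in any list.

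**Figure D3:**
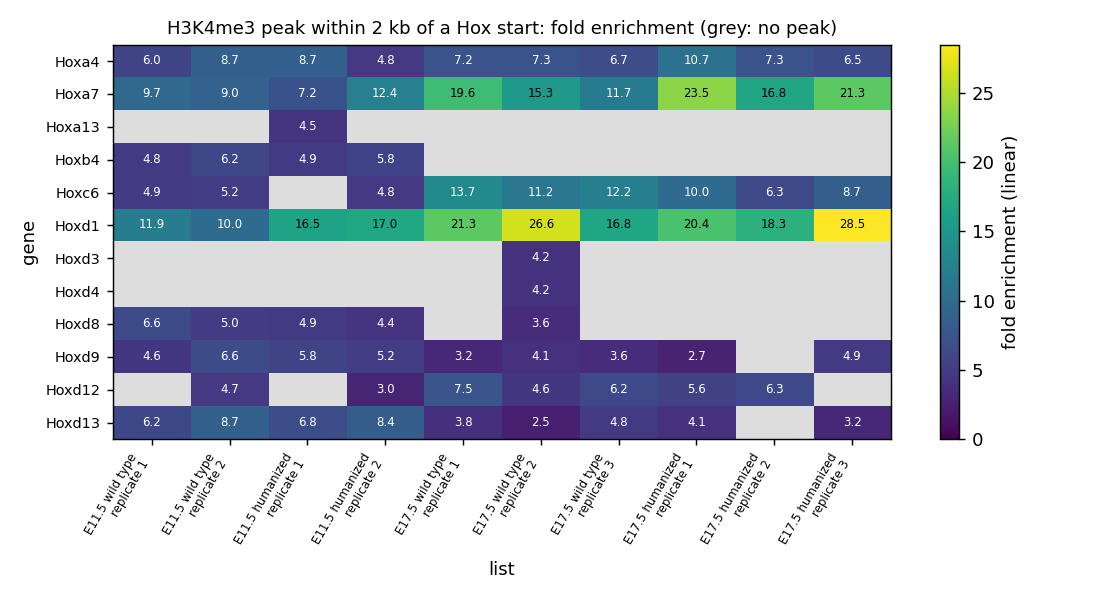
Fold enrichment of the H3K4me3 peak within 2 kb of a Hox start (colour and printed value, linear scale, grey where no peak was listed) for 12 genes with a peak in any of the 10 lists (columns). Hoxa4, Hoxa7 and Hoxd1 had a peak in every list, and the highest value was 28.5 at Hoxd1.

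Hoxd1 and Hoxa7 reached the highest values of the starts described here. Hoxd1, for which 0, 0, 0 and 0 reads were counted in the E11.5 wild type libraries and 0, 0, 1 and 3 in the E11.5 humanized libraries, had folds of 11.9, 10, 16.5 and 17 in the 4 lists of E11.5, wild type first, and 21.3, 26.6, 16.8, 20.4, 18.3 and 28.5 in those of E17.5. Hoxa7, in the middle of HoxA, had 9.7, 9.0, 7.2 and 12.4 in the E11.5 lists, then 19.6, 15.3, 11.7, 23.5, 16.8 and 21.3 in the E17.5 lists. For both, 5 of 6 values at E17.5 were above every E11.5 value. These Hoxa7 values belong to its outermost start. Its canonical start lies 4.35 kb further along the cluster, and the H3K4me3 site there, at 43.44 kb from the 5′ end, had the other order of the stages, with folds of 4.87, 4.42, 5.79 and 4.29 in the 4 lists of E11.5 and no peak at E17.5. Hoxa4 had 4.8 to 8.7 at E11.5 and 6.5 to 10.7 at E17.5, which overlap.

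In limma's fit over 13170 starts with a peak in all 10 lists, 19% were higher at E17.5 and 2.89% lower, with a median difference of 0.175, and 10.4% and 5.1% after each list's median was subtracted. Relative to that median, Hoxa7 was higher at E17.5 by 0.70 on the log2 scale (SE 0.187, adjusted p = 0.0182). Without subtraction Hoxa7 was higher by 0.90 (SE 0.192, adjusted p = 0.00261). Hoxd1 passed without subtraction (0.67, SE 0.181, adjusted p = 0.0129) and not with it (0.47, adjusted p = 0.0979). Hoxa4 gave 0.14 (adjusted p = 0.685).

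The other 9 starts had the mark in 1 to 9 lists. Hoxb4 had folds of 4.8 to 6.2 in all 4 E11.5 lists and no peak at E17.5. Hoxc6 had 4.9, 5.2 and 4.8 in 3 of 4 E11.5 lists and 6.3 to 13.7 in all 6 E17.5 lists. Hoxd8, with 4 reads over the E11.5 libraries and 17 over those of E17.5, had 4.4 to 6.6 in all 4 E11.5 lists and a peak in 1 of 6 E17.5 lists. Hoxd13 went from 6.2 to 8.7 at E11.5 to 2.5 to 4.8 in 5 of 6 lists at E17.5. These starts lie outside the fit, which needs all 10 lists. Counting sites rather than starts, H3K4me3 lay at 21 sites inside the clusters in at least 1 list, 9 of them in lists of both stages, 9 at E11.5 only and 3 at E17.5 only. The E11.5 sites that were in all 4 lists and in none of E17.5 numbered 4. By the nearest outermost start they were assigned to Hoxa3 (the site at the canonical Hoxa7 start), Hoxb4, Hoxb2 and Hoxd1.

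H3K27ac was absent from the clusters in every list. No peak lay inside any cluster, and 0 of 39 starts had one within 2 kb, in any of the 10 lists, against 46.1% (E11.5) and 56.0% (E17.5) of all protein-coding starts. The nearest H3K27ac peak present in all 10 lists beside HoxD lay 62.98 kb past the Hoxd1 start, at the Mtx2 side, with folds of 10 to 30.6. The antibody used for H3K27ac also recognises acetylated H2B, per the study's methods, and neither signal was seen in the clusters. A peak list with no peak sets no limit on weaker signal.

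CTCF lay within the clusters at E17.5, the one stage at which it was measured, at sites inside annotated Hox genes and at sites between them. In all 3 wild type lists it was found at 29 sites inside the clusters, 6 in HoxA, 11 in HoxB, 4 in HoxC and 8 in HoxD, and 27 of them were in all 6 lists of both genotypes. That was 5.9 sites per 100 kb, against 1.89 per 100 kb over the genome. Within 2 kb of starts it was at 13 of 39, against 37.9% of all protein-coding starts. At this window the starts themselves did not stand above the background. The 13 were Hoxa3, Hoxa5, Hoxa7, Hoxa10, Hoxb5, Hoxb6, Hoxb7, Hoxc5, Hoxc10, Hoxd8, Hoxd9, Hoxd10 and Hoxd12. Hoxc5 and Hoxc10 share 1 peak, and the canonical starts of Hoxa7, Hoxa10, Hoxb6 and Hoxc5 lie 4.35, 5.92, 6.3 and 46.37 kb from the starts used. The sites in all 3 wild type lists ended short of the 3′ ends. The last lay 63.35 kb from the 5′ end of the 105.25 kb of HoxA, at 117.46 of 173.98 kb in HoxB (a further one at 144.19 kb was in 5 of the 6 lists), at 92.56 of 115.74 kb in HoxC and at 47.62 of 96.83 kb in HoxD.

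The site at the Hoxa7 start had the highest single fold, 70.5, 34.4 and 51.2 in the wild type lists and 55.0, 34.0 and 62.5 in the humanized lists. The site 1.63 kb from the Hoxa3 start had 45.4, 35.8 and 45.9 in wild type. In HoxB, the site shown above had 43.5, 32.1 and 35.4, the site before Hoxb8 29.1, 42.0 and 42.6, and the site before Hoxb4 40.6, 30.4 and 36.6. The printed HoxC site had 26.7, 31.3 and 36.3, and the printed HoxD site 34.1, 26.7 and 28.5. At the Hoxd9 and Hoxd10 starts the folds were lower, 6.8 to 7.9 and 5.3 to 7.0. Of the 8 H3K4me3 sites in all 3 wild type lists of E17.5, 3 overlapped a CTCF site, at Hoxa7, Hoxd9 and before Hoxd12.

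**Figure D4:**
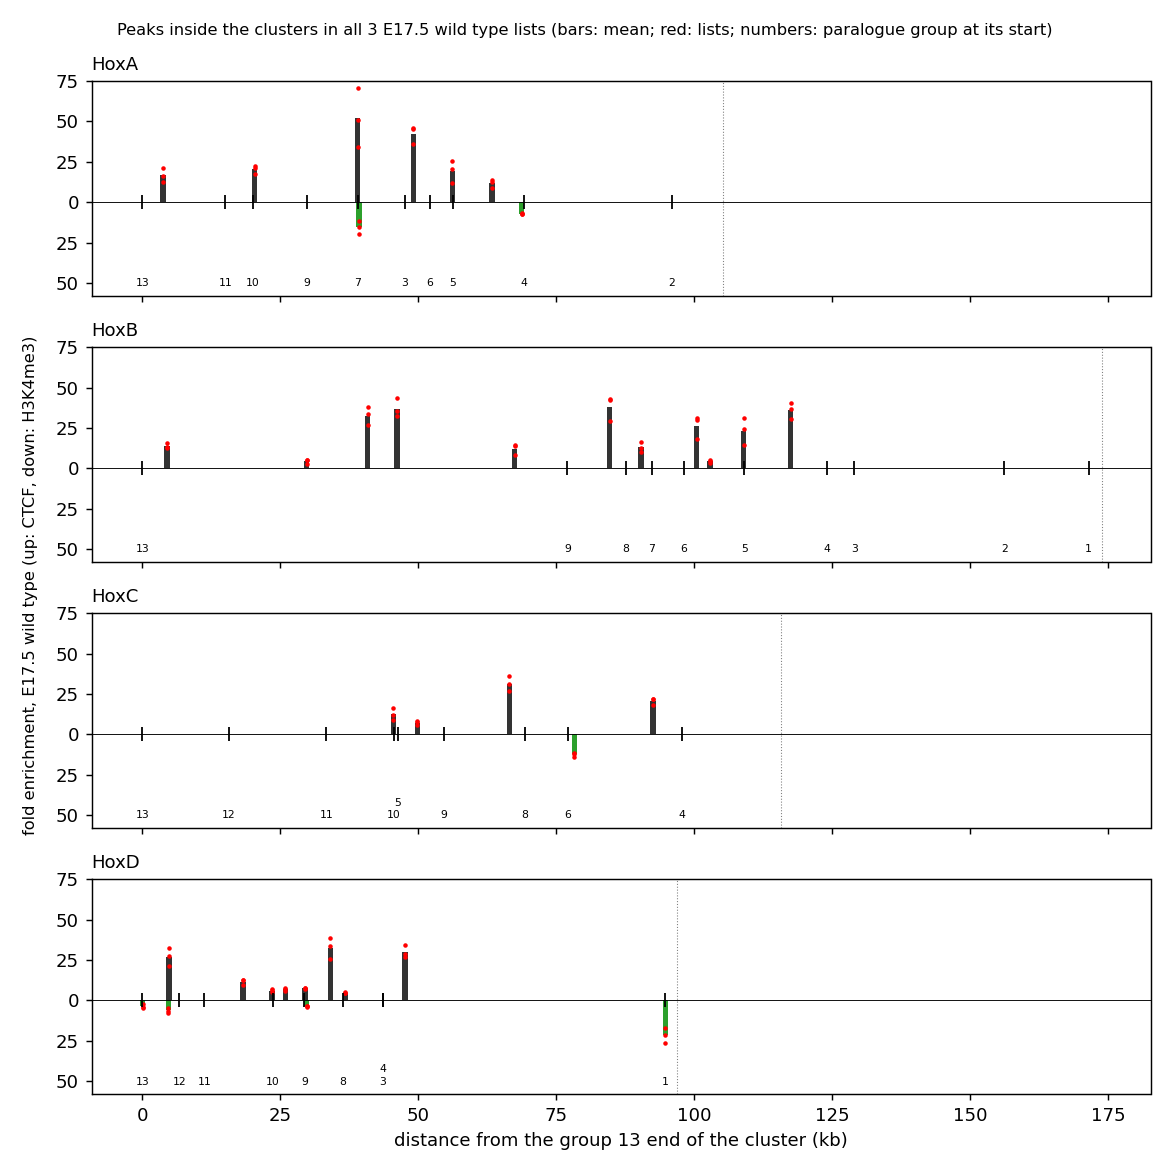
CTCF and H3K4me3 sites inside the clusters (1 H3K4me3 site not shown) in all 3 E17.5 wild type lists, by distance from the group 13 end (horizontal axis, kb) and fold enrichment (vertical axis, linear), with CTCF upwards and H3K4me3 downwards. Bars are means, red points the 3 lists, ticks gene starts with their paralogue group, and dotted lines the other cluster end. The CTCF sites of HoxC lay between 45.49 and 92.56 kb, and in HoxD none lay beyond 47.62 kb.

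The CTCF core motif, searched on both strands with up to 2 of its 12 bases mismatched within 100 bases of each summit, was found at 23 of the 29 sites (79.3%). It was at 78.5% of the 51511 CTCF sites of the genome and at 16.4% of windows 2 kb away from them. Of the 10 sites whose lowest wild type fold was at least 20, 9 had a match. The match pointed along Hox transcription at 14 sites and against it at 9. In HoxA it pointed along transcription at 4 of 5, in HoxC at 2 of 3 and in HoxD at 4 of 5, and in HoxB at 4 of 10. The 4 most 5′ matches of HoxB pointed against transcription, all before Hoxb9. Most of the 23 matches had 2 mismatches, the setting at which 16.4% of windows away from sites also matched, so their orientation is uncertain. With at most 1 mismatch, a smaller share of the Hox sites than of the genome's sites had a match. Orientations were not counted again at that setting. A match is a description of the letters and not a mapped contact.

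Over 1 kb centred on the start, the observed to expected CG ratio of the 39 starts had a median of 0.64 (0.18 to 1.0), against 0.51 over all protein-coding starts, and 23 of 39 (59.0%) reached 0.6, against 42.2%. The 4 starts with H3K4me3 in all 10 lists had ratios of 0.64 to 0.92, the 9 with it in some lists a median of 0.72, and the 26 with none a median of 0.61. The ranges overlapped, and 13 of the 26 starts without the mark reached 0.6, such as Hoxa5 at 0.996. Hoxa2, printed above with 3 CG pairs before its start, had 0.689 over the wider window, above Hoxa7 at 0.64, so the order of the printed stretches did not hold over 1 kb.

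The same marks were counted at 2 other families of patterning genes. All 6 Iroquois genes (Irx1 to Irx6), which pattern the midbrain and thalamus, and all 9 Pax genes also had H3K27me3 within 2 kb in every wild type list of both stages. H3K4me3 was at 6 of 6 Iroquois starts in both ages and at 4 and then 3 of 9 Pax starts. H3K27ac was at 4 and then 5 Iroquois starts and at 3 and then 2 Pax starts, against 0 Hox starts. The H3K27me3 folds were lower at the Iroquois starts, with medians of 7.7 and then 11.2, than at the Hox starts, with 29.3 and 18.5, and the Pax starts had 16.1 and 13.8. Iroquois RNA summed to 287 to 337 CPM at E11.5 and 43.2 to 85.3 at E17.5, and Pax RNA to 255 to 320 and 44.4 to 60.2. These are small families chosen for comparison, and no test was made between them.

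No difference between humanized and wild type embryos was called at any Hox gene in the tests made, which left out H3K27ac and CTCF. For RNA at E11.5 edgeR called no gene, 0.0% of 17816, with 1058 at an unadjusted p under 0.05 and 2 called by DESeq2. At E17.5 no Hox gene passed the filter, edgeR called 0 of 18763 genes, with 207 at an unadjusted p under 0.05, and DESeq2 called 1, which was no Hox gene. The difference of the stage change was called for no gene, 0.0% of 20234, with 1610 at an unadjusted p under 0.05 and 0 by DESeq2. For H3K4me3 fold, limma called 0 of 13170 starts between genotypes, with 682 at an unadjusted p under 0.05, and for H3K27me3 it called 1 of 3495, with 36 under 0.05, and no Hox start. The H3K4me3 fit held 4 of the 39 Hox starts. Genotype differences of H3K4me3 at Hoxa4, Hoxa7 and Hoxd1 were 0.04 to 0.28 on the log2 scale. Hox starts with H3K4me3 in every E17.5 list numbered 8 in wild type and 5 in humanized embryos, where Hoxd9, Hoxd12 and Hoxd13 lacked it in a list. Over all protein-coding starts the numbers were 13475 and 13427 of 21738. This difference was not tested. HoxB coverage at E17.5 was 98.3% ± 0.558 in humanized and 99.1% ± 0.005 in wild type lists (SD, n = 3 each), with all humanized lists lower and an exact permutation p of 0.1, the smallest that 3 against 3 allow. With so few reads on most members, smaller differences were not detectable at this depth.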

How the data were processed

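RNA was sequenced in 16 samples, and 36 ChIP samples had a peak list. The 24 input samples of the 76 were not analysed here. The authors aligned RNA reads to mm39 with STAR 2.7.9a and deposited STAR's raw read count per gene, in unstranded and stranded columns. Reads on no gene were 48.1% to 58.4% of a sample and were left out. ChIP reads were aligned with Bowtie2 2.4.2 (humanized samples to a humanized genome), multimapping reads and duplicates were removed, and MACS2 2.2.7.1 called peaks per replicate. Deposited lists give the fold enrichment, the −log10 of p and of q, and a score, which was not used. H3K27me3 lists have the broad form, and how they were called is not given in the sources used here. Read depth is unknown from them.

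Counts were filtered with filterByExpr, TMM normalised and tested by edgeR 4.0.16 (R 4.3.3), with DESeq2 1.42.0 as an alternative. Log2 peak folds were tested by limma 3.58.1 with stage and genotype. Calls had a Benjamini-Hochberg adjusted p under 0.05. A start had a mark when a peak came within 2 kb of the outermost annotated start. Covered shares were compared by two-sided exact permutation tests (SciPy 1.17.1). Start marking, coverage, the motif search, limma's fits and edgeR's comparisons of stage and of genotype were tested on simulated data. The DESeq2 fits and the fit of the difference of the stage change were not. The rule named members that were called, the 10 highest in CPM per kb, those with marks in every wild type list, flanking genes and called genes of the lists. Members and lists were chosen with earlier results of these data known. The fits of peak folds, and the mismatches allowed in the motif, were chosen after seeing the data. Results of some genes are not reported here.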

Additional observations from a re-analysis of the deposited data

How the results depend on the processing

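Of the RNA results, Hox genes called lower at E17.5 in wild type went from 1 to 2 with DESeq2 and without the filter on low counts. All genes called lower were 5159 of 28168 and 5162 of 36712. Both settings added Hoxc13, which had 0 reads at E17.5 and entered through its E11.5 libraries. In humanized embryos the number of Hox genes went from 0 to 1 with DESeq2, the strand count or all 16 samples in one fit. It went to 2 without the filter. All genes called lower were 7451 of 28949 with DESeq2 and 7302 of 18221 on the strand count. They were 7096 of 20234 in the one fit and 8207 of 36798 without the filter. The number of Hox genes was 0 to 1 when each library was left out in turn, with 1 in 5 of the 8 fits. Starts with H3K4me3 at E17.5, and starts with both marks, went from 8 to 5 in humanized lists. Starts with CTCF went from 13 to 22 with a window of 5 kb. Widened by 10 kb, HoxD coverage over both genotypes rose by 3.85 percentage points (exact permutation, adjusted p = 0.00952). H3K4me3 starts higher at E17.5 went from 2 to 1 with list medians subtracted, and 1 to 2 with each list left out (1 without E11.5 wild type replicate 2). Starts lower went from 0 to 1 with medians subtracted, and 0 to 1 with each list left out (1 without E11.5 humanized replicate 1 or E17.5 humanized replicate 3). CTCF sites with the motif went from 23 to 7 with 1 mismatch, when 50.9% of all CTCF sites had it. The other alternatives kept direction and side of the threshold.

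Replicate numbers were not taken to pair the samples, since no contrast had every correlation of same-numbered samples' deviations over 0.1. Between genotypes they were 0.0332 to 0.108 at E11.5 and 0.0509 to 0.484 at E17.5, where 3 of 4 were over 0.1, and between stages -0.45 to 0.294. With the replicate number as a block, the RNA stage comparison called 1 Hox gene lower at E17.5 in wild type and 1 in humanized embryos (edgeR). All genes called lower were 4641 of 20503 and 7713 of 20521. The genotype comparisons at E11.5 and E17.5 called 0 genes with that block, with 1086 and 765 at an unadjusted p under 0.05.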
